A study of Mus musculus with 14 samples.

Results

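Resident macrophages of the mammary gland were followed through 10 genes, chosen by name: the growth factor Csf1, its receptor Csf1r, and the macrophage markers Adgre1, Cd68, C1qa, Mrc1, Lyve1, Folr2, Cd163 and Cd209d. All 10 were found among the 16124 genes of the expression table, and each was detected in all 14 libraries. RNA-seq was performed on mammary epithelial cells (MECs) prepared from 7 pairs of female littermates, 3.5 months old, numbered 1, 3, 4, 5, 6, 7 and 8. Each pair held 1 wild type (WT) mouse and 1 Usp22 OE/OE mouse, which is homozygous for a tagged Usp22 cDNA placed in the ROSA26 locus behind the CAGGS promoter. A STOP cassette before the cDNA had been removed in the oocyte by Zp3-Cre, so that the enzyme, a deubiquitinase of the SAGA complex, is overexpressed ubiquitously and not in the epithelium alone. Its level in macrophages was not measured here. Whether the WT littermates carried Zp3-Cre is not given in the sources used here. Normalised Usp22 counts were 3500 to 5380 in WT and 74948 to 144288 in OE/OE mice, so that all libraries matched their labels.

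Macrophages settle around mammary ducts and between the epithelial layers. They depend on the CSF1 receptor, a tyrosine kinase on their surface, and on its ligand CSF1, which epithelial and stromal cells release, and they clear dying cells and shape the growth of ducts. A tissue-resident population is recognised by receptors for sugars, folate, haemoglobin and hyaluronan (MRC1, FOLR2, CD163, LYVE1), whereas ADGRE1 (F4/80), CD68 and complement C1q are shared by most macrophages. For this preparation the lymph nodes of the number 4 glands were removed, and the glands were digested and spun in short pulses. The supernatant, which held fibroblasts, endothelial cells and macrophages, was set apart as stroma, and the pellet of epithelial organoids was sequenced. The transcripts read here therefore came from the organoids or from cells that stayed with them. For genes made by macrophages alone, fewer macrophages and less RNA per macrophage cannot be told apart. Csf1 is also made by epithelial and stromal cells, and Lyve1 by lymphatic endothelium. Which cells carried the transcripts of Csf1 and Lyve1 was not tested.

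Between 20125106 and 41835978 fragments were counted per library (WT median 37546978, OE/OE median 38130881), the WT mice of pairs 1 and 8 being the shallowest at 20125106 and 22632805. Epithelial genes were far above the macrophage genes, with means of 68486 normalised counts per kb of exon for Krt8 and 22276 for Epcam, against 208 per kb for Csf1r. Some libraries stood apart in other cell types. In the OE/OE mouse of pair 4 the summed level of 6 blood endothelial genes was 10573 normalised counts, against 29405 to 60459 in the other 13 libraries. In the WT mouse of pair 1 the summed level of 4 lymphocyte genes was 942, against 30.2 to 143 in the others. The calls of the members are also given without these pairs.

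Of the 10 macrophage genes, 4 fell in OE/OE MECs: Csf1, Lyve1, Folr2 and Cd209d. The call was an unadjusted p of 0.05 or less in a limma fit across all genes, blocked by littermate pair, and 3.81% of all genes passed it, 1.85% as lower and 1.95% as higher in OE/OE. None of the 10 rose. After Benjamini-Hochberg adjustment over all genes none of the 10 passed (limma, adjusted p = 1.00 for each), against 0.0124% of all genes. The log2 fold change was below 0 for 10 of 10 genes, with a median of -0.37 (0.775-fold), whereas 50.4% of all genes were below 0 and their median was -0.0015. WT and OE/OE values overlapped for all 10 genes, and the share of all genes for which they did is not given here. The calls rest on the pairing: without the littermate block only Cd209d passed, and Csf1, Lyve1 and Folr2 did not. A paired test of each gene on untransformed counts, as used in the study, also left Cd209d alone. Without pair 4 the number called was 3, and without pair 1 it was 4. Beside each call the p of an exact sign-flip test of the 7 pair ratios is given, which assumes no distribution and cannot go below 0.0156.

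**Figure D1:**
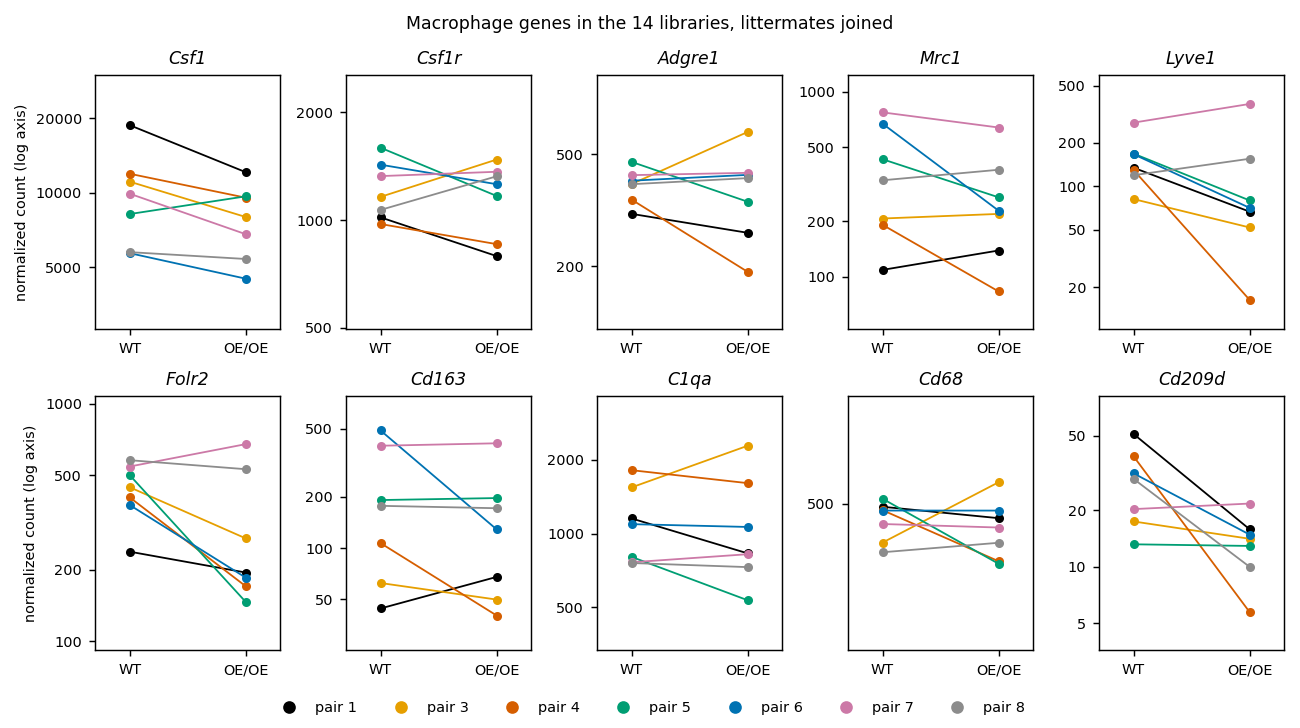
Normalised counts (log axis) of the 10 macrophage genes in the 7 WT and 7 OE/OE mice, with a line joining the littermates of each pair. For Cd209d and Folr2 6 of 7 lines go down, whereas the lines of Csf1r, Adgre1 and Cd163 go both ways.

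Csf1 encodes the ligand that macrophages need to survive and divide (chr3:107741048-107760469, minus strand, GRCm38). Its normalised counts ran from 5708 to 18743 in WT mice (median 9917) and from 4503 to 12111 in OE/OE mice (median 7987). The highest value was that of the WT mouse of pair 1 and the lowest that of the OE/OE mouse of pair 6, with wide overlap between the groups. Within litters the OE/OE mouse was lower in 6 of 7 pairs. The exception was pair 5, with 8205 in WT and 9673 in OE/OE. Csf1 fell to 0.807-fold of WT (95% interval 0.684 to 0.953, log2 fold change -0.31, SE 0.11, exact sign-flip p = 0.0469). The limma call was lost without pair 7 (log2 -0.27) and kept without any other single pair.

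Csf1r encodes the receptor (chr18:61100598-61132149, plus strand) and marks the whole lineage. WT values were 975 to 1591 (median 1160) and OE/OE values 793 to 1475 (median 1259). The OE/OE mouse was lower in 4 of 7 pairs, and the groups covered nearly the same range. No difference was detected, at 0.954-fold with an interval of 0.804 to 1.13 (exact sign-flip p = 0.562). Of the 75-base windows in Csf1r exons 13.9% also lie in exons of Hmgxb3 on the opposite strand, which was itself at a log2 fold change of 0.02 and did not pass.

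Adgre1, Cd68 and C1qa are carried by most macrophages, and for none of them was a difference detected. Adgre1 encodes the surface protein F4/80 (chr17:57358691-57483527, plus strand). It was at 307 to 469 in WT mice (median 391) and 191 to 599 in OE/OE mice (median 411). The OE/OE values spread further in both directions than those of WT, with pair 4 lowest and pair 3 highest. The fold change was 0.928 (0.724 to 1.19, exact sign-flip p = 0.562), and the log2 value passed from -0.11 to 0.015 without pair 4.

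Cd68 encodes a lysosomal membrane glycoprotein of phagocytes (chr11:69664213-69666153, minus strand). Its WT values of 385 to 514 (median 482) and OE/OE values of 361 to 562 (median 440) were the most even of the 10 genes, with a highest to lowest ratio of 1.56 over all libraries. The fold change was 0.954 (0.791 to 1.15, exact sign-flip p = 0.578), with 5 of 7 OE/OE mice below their littermate. Without pair 5 the log2 value passed from -0.07 to 0.0050.

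C1qa encodes a chain of C1q, which starts the classical complement pathway (chr4:136895917-136898803, minus strand). WT values were 758 to 1811 (median 1092) and OE/OE values 535 to 2276 (median 830). The mice of pairs 3 and 4 held the 4 highest values, and the litter explained 89.9% of the spread of C1qa. The fold change was 0.937 (0.767 to 1.14, exact sign-flip p = 0.50). Its partner chains C1qb and C1qc, at log2 fold changes of -0.17 and -0.12, did not pass either.

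Mrc1, Lyve1, Folr2, Cd163 and Cd209d encode the uptake and recognition receptors of resident macrophages, and 3 of these 5 fell. Lyve1, a hyaluronan receptor shared with lymphatic endothelium (chr7:110850607-110863239, minus strand), was at 81.6 to 277 in WT mice (median 135) and 16.3 to 373 in OE/OE mice (median 70.9). Both extremes were OE/OE mice, of pairs 4 and 7. In 5 pairs the OE/OE mouse was at 0.126 to 0.635 of its littermate's level, and in pairs 7 and 8 it was the higher mouse. Lyve1 fell to 0.549-fold (0.315 to 0.957, log2 fold change -0.86, SE 0.36), although the exact sign-flip test gave p = 0.0781. The call was lost without any of pairs 1, 3, 4, 5 or 6, and without pair 4 the log2 fold change was -0.52.

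Lyve1 also marks lymphatic vessels, and 6 lymphatic endothelial genes (Prox1, Flt4, Pdpn, Mmrn1, Ccl21a, Reln) were read beside it. None of the 6 passed the test in either direction, and their median log2 fold change was -0.08. In pair 4, where Lyve1 had its lowest ratio (log2 -2.92), 4 of the 6 were also lower in the OE/OE mouse, with log2 ratios of -1.53 for Prox1, -1.73 for Flt4, -2.92 for Mmrn1 and -3.77 for Ccl21a, while Pdpn (0.01) and Reln (1.93) were not. In pairs 1, 5 and 6, where Lyve1 was lower as well, Prox1, Flt4 and Mmrn1 were higher in the OE/OE mouse. Pdpn was lower there in each of them. Ccl21a was lower in pairs 1 and 5 and higher in pair 6. In pair 1 it was at 659 in the WT mouse, that with the raised lymphocyte genes, and 7.41 in the OE/OE mouse (log2 -6.29). Reln was lower in pairs 1 and 6 and higher in pair 5. In pair 3, where Lyve1 was also lower, Prox1 (-0.41), Flt4 (-0.35), Mmrn1 (-0.93) and Reln (-0.57) were lower. Pdpn (0.85) and Ccl21a (1.11) were higher in that pair. The summed level of the 6 genes, carried mainly by Pdpn and Reln, was 4805 to 6813 in WT and 4546 to 7274 in OE/OE mice. The part of lymphatic endothelium in the Lyve1 ratios was not tested.

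Folr2, a folate receptor of perivascular and tissue-resident macrophages (chr7:101839988-101857194, minus strand), was at 239 to 579 in WT mice (median 445) and 147 to 676 in OE/OE mice (median 195). Of the 7 OE/OE mice 4 (pairs 1, 4, 5 and 6) were below the lowest WT mouse, while that of pair 7 was the highest of all. Folr2 fell to 0.620-fold (0.435 to 0.884, log2 fold change -0.69, SE 0.23) and was lower in 6 of 7 pairs, with an exact sign-flip p of 0.0625. The call was kept with any pair left out (log2 -0.86 to -0.51). Exons of Folr2 share 63.1% of their bases with the antisense gene Gm10602, and as the strand setting of the counting is not given in the sources used here, fragments from that stretch cannot be told apart. Gm10602 itself had 44.4 ± 14.2 (SD, n = 7) normalised counts in WT and 46.4 ± 7.96 in OE/OE mice, a difference that did not pass.

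Cd209d encodes a C-type lectin of the mouse CD209 cluster that binds microbial sugars (chr8:3871824-3878555, minus strand). It was the lowest of the 10 genes, also per exon length, with 6 to 44 fragments per library. WT values were 13.2 to 51.1 (median 29.5) and OE/OE values 5.75 to 21.8 (median 14.1). The WT mouse of pair 1 was highest and the OE/OE mouse of pair 4 lowest, while pairs 5 and 7 differed by 1.07-fold or less. Cd209d fell to 0.504-fold (0.300 to 0.850, log2 fold change -0.99, SE 0.33) in 6 of 7 pairs, with an exact sign-flip p of 0.0469. Without pair 1, whose WT mouse had the raised lymphocyte genes, the log2 fold change was -0.88, and without pair 4 it was -0.72. The call was kept in both and with any other pair left out. It was the member for which genotype explained the largest share of the spread, 43.5%, and its litter share was 20.1%.

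Mrc1, the mannose receptor (chr2:14229392-14332057, plus strand), was at 109 to 772 in WT mice (median 332) and 83.4 to 639 in OE/OE mice (median 228). OE/OE mice of pairs 4, 5 and 6 were at 0.339 to 0.623 of the level of their littermates, and those of pairs 1, 3 and 8 were higher, by up to 1.27-fold. The fold change of 0.737 did not pass (0.513 to 1.06, exact sign-flip p = 0.188), although the limma call was made without pair 1.

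Cd163, the haemoglobin scavenger receptor (chr6:124304656-124330527, plus strand), was at 44.3 to 488 in WT mice (median 177) and 40.3 to 411 in OE/OE mice (median 129). Its pair ratios ran both ways, at 0.263 of the littermate in pair 6, 0.377 in pair 4 and 1.53 in pair 1. The fold change of 0.745 did not pass (0.476 to 1.17, exact sign-flip p = 0.344).

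The promoters of Csf1, Folr2 and Cd209d, 3 of the 4 genes that fell, are shown as the 250 bases before the RefSeq transcription start. They were read because PU.1, the ETS factor that directs macrophage genes, binds near the start of many of them. The capitals mark AGGAAGT, a core of 7 letters read by ETS factors, which was searched on both strands and is contained in the longer form GAGGAAGT. The sequences are from RefSeq (GRCm38.p6), which held 7 windows for 6 of the members on the chromosomes searched, and run 5′ to 3′ on the minus strand, where these genes lie. No window of Lyve1 is shown.
Csf1, chr3:107760470-107760719: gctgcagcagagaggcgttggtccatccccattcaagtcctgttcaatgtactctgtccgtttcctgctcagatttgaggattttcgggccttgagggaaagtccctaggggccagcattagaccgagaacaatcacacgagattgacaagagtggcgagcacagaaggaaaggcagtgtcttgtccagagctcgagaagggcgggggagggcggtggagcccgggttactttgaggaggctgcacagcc
Folr2, chr7:101857191-101857440: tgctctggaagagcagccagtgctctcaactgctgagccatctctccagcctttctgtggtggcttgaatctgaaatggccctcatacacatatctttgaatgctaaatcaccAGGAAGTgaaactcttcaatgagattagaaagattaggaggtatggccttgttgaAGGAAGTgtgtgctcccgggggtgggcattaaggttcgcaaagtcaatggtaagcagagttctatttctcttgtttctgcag
Cd209d, chr8:3878500-3878749: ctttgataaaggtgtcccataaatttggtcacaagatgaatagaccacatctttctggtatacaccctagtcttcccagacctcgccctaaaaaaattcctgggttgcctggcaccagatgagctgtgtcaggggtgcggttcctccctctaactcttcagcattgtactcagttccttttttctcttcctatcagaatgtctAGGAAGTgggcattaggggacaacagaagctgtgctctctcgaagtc
Folr2 held the letters at positions 114 and 169, Cd209d at position 204, 47 bases before the RefSeq start, and Csf1 held none in this window. A second RefSeq start of Folr2 (chr7:101845332-101845581) held none either. Mrc1, which did not pass the test, held it once on the other strand. The GENCODE start of Cd209d, at base 3878555, lies further upstream, so that its match is inside the gene as counted here. Of 32851 RefSeq windows of the same length 7.69% held AGGAAGT and 2.44% held GAGGAAGT, against 3 and 0 of 7 windows of the members. A match is a stretch of letters and was not tested as a binding site.

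**Figure D2:**
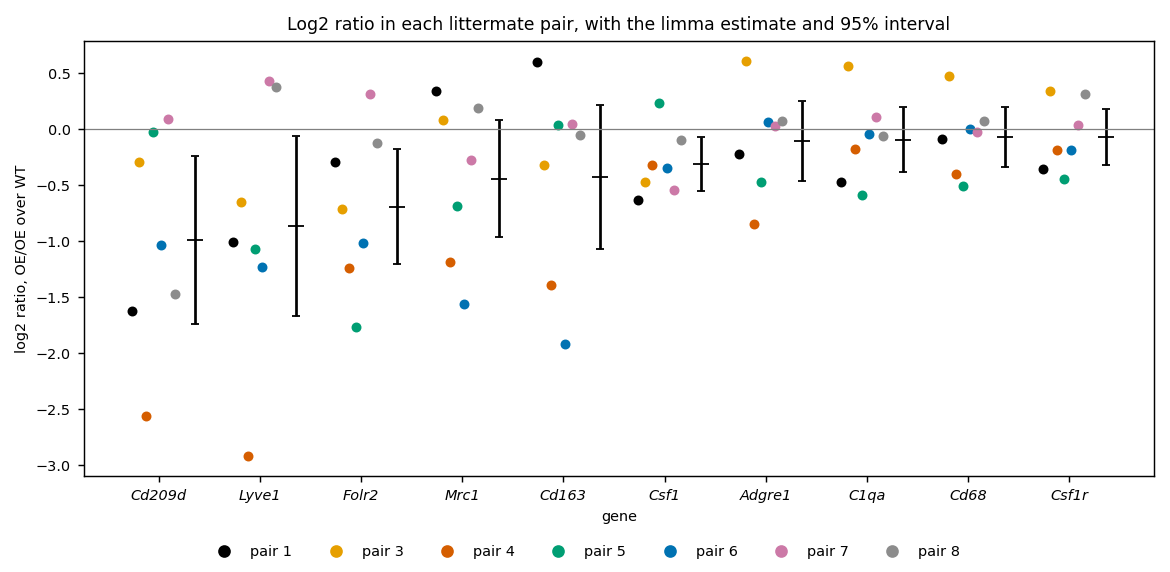
Log2 ratio of OE/OE to WT in each littermate pair (points, 1 colour per pair) for the 10 genes, with the limma estimate and its 95% interval as a bar beside them. The intervals of Cd209d, Lyve1, Folr2 and Csf1 lie below 0, and the lowest points of Cd209d and Lyve1 are both from pair 4, at -2.56 and -2.92.

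The 10 genes were not lowered evenly across litters. In pair 4 all 10 were lower in the OE/OE mouse, with a median log2 ratio of -1.02. In pair 6 it was 9 genes (median -0.68), in pairs 1 and 5 it was 8 (medians -0.32 and -0.49), in pairs 3 and 8 it was 5 (medians -0.10 and 0.01) and in pair 7 it was 3 (median 0.04). The median over all genes stayed between -0.02 and 0.04 in the 7 pairs. The median over the members was -0.29 without pair 4 and -0.22 without pair 6. In pair 4 some other cell types moved as well. The log2 ratios of the list sums were -1.80 for blood endothelial, -2.16 for adipocyte, -0.63 for fibroblast, -0.60 for lymphocyte and -0.88 for granulocyte genes. They were 0.20 for lymphatic, 0.24 for monocyte and dendritic cell and -0.0054 for epithelial genes. The lymphatic sum was carried mainly by Pdpn and Reln, while Prox1 (-1.53), Flt4 (-1.73), Mmrn1 (-2.92) and Ccl21a (-3.77) were lower in the OE/OE mouse. The adipocyte sum was set mainly by Fabp4. The fibroblast sum was lower than in pair 4 in pairs 3, 5 and 6 (-0.84, -1.04 and -0.66). In pair 6 the blood endothelial sum was at 0.05. The part of these cells in the members' ratios was not tested.

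For comparison between genes the counts were divided by exon length. On this scale Csf1 had the highest mean over the 14 libraries, 1723 normalised counts per kb (853 to 3549), followed by C1qa at 1084, Cd68 at 357, Folr2 at 243, Csf1r at 208 and Adgre1 at 119. Of the resident receptors, the 4 other than Folr2 were at the low end, with Mrc1 at 52.3, Lyve1 at 46.3, Cd163 at 33.1 and Cd209d at 23.1 per kb. C1qa and Cd68 were the only neighbours in this order whose ranges did not overlap, and C1qa was above Cd68 in 14 of 14 libraries. Csf1r was above Adgre1, and Adgre1 above Mrc1, also in 14 of 14. Folr2 and Csf1r had no order, Folr2 being higher in 7 of 14. Their exon lengths include bases shared with genes on the opposite strand, 63.1% for Folr2 and 15.1% for Csf1r. As the strand setting of the counting is not given, the places of Folr2 and Csf1r are uncertain. Mrc1 was above Lyve1 in 10, Lyve1 above Cd163 in 11 and Cd163 above Cd209d in 9 of 14 libraries, which leaves the order of these 4 receptors within their spread.

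**Figure D3:**
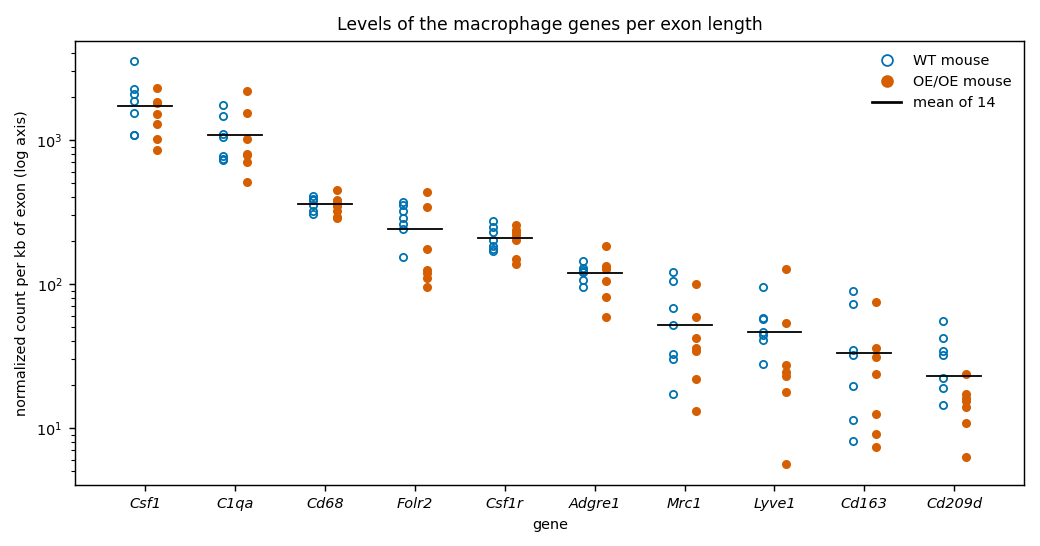
Normalised count per kb of exon (log axis) of the 10 macrophage genes in each WT mouse (open points) and OE/OE mouse (filled points), with the mean of the 14 libraries as a line. Means go from 1723 for Csf1 to 23.1 for Cd209d, and the points of Lyve1, Mrc1 and Cd163 spread over a wider range than those of Cd68 and Csf1r.

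Litters differed more in some members than in others. The highest litter mean was 7.21 times the lowest for Cd163, 5.70 times for Mrc1, 4.87 times for Lyve1 and 2.81 times for Folr2, and pair 7 was the highest litter for these 4 genes. Csf1 (3.02), C1qa (2.85) and Cd209d (2.56) were near Folr2, and for Csf1r, Adgre1 and Cd68 the ratio was 1.52, 1.85 and 1.23. Pair 1 had the lowest mean of Csf1r, Mrc1, Folr2 and Cd163 and the highest of Csf1 and Cd209d. The median share of the spread explained by the litter was 69.6% for the 10 genes and 73.9% for all genes. Genotype explained a median of 4.48% for the 10 genes and 1.43% for all genes. These are raw shares of the sum of squares, in which 7 litters take up more than the genotype contrast by number alone. Litter and genotype shares are therefore not comparable with each other, and the litter share also holds anything else that a pair had in common.

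The OE/OE to WT ratios of the members were then compared with those of Csf1r over the 7 pairs. The highest r was that of C1qa (Pearson r = 0.86, exact permutation p = 0.0115, Spearman rho = 0.89, p = 0.0123), then Cd68 (r = 0.81, exact p = 0.0244, rho = 0.93, p = 0.00675) and Adgre1 (r = 0.71, exact p = 0.0641, rho = 0.86, p = 0.0238). By rho Cd68 was above C1qa, and without pair 1 it was so by r as well (0.87 against 0.82). Adjusted over the 9 genes compared, none of the 3 stayed under 0.05 (exact permutation, 0.104, 0.110 and 0.192 for r, and 0.0554, 0.0554 and 0.0714 for rho). Without pairs 3 and 8, which lie farthest from the median Csf1r ratio, r was 0.97 for C1qa, 0.58 for Cd68 and 0.38 for Adgre1. Fewer pairs over a narrower range of Csf1r remain there, so that these values cannot show what the relations rest on. Without pair 3 alone r was 0.78 for C1qa, 0.69 for Cd68 and 0.53 for Adgre1. Without pair 8 alone it was 0.99, 0.85 and 0.75. For the resident receptors r was 0.53 for Folr2 (exact p = 0.215), 0.52 for Lyve1 (0.238), 0.41 for Mrc1 (0.348), 0.13 for Cd209d (0.769) and 0.03 for Cd163 (0.946). The ligand Csf1 was at -0.22 (exact p = 0.661). Whether these correlations differ from each other was not tested.

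**Figure D4:**
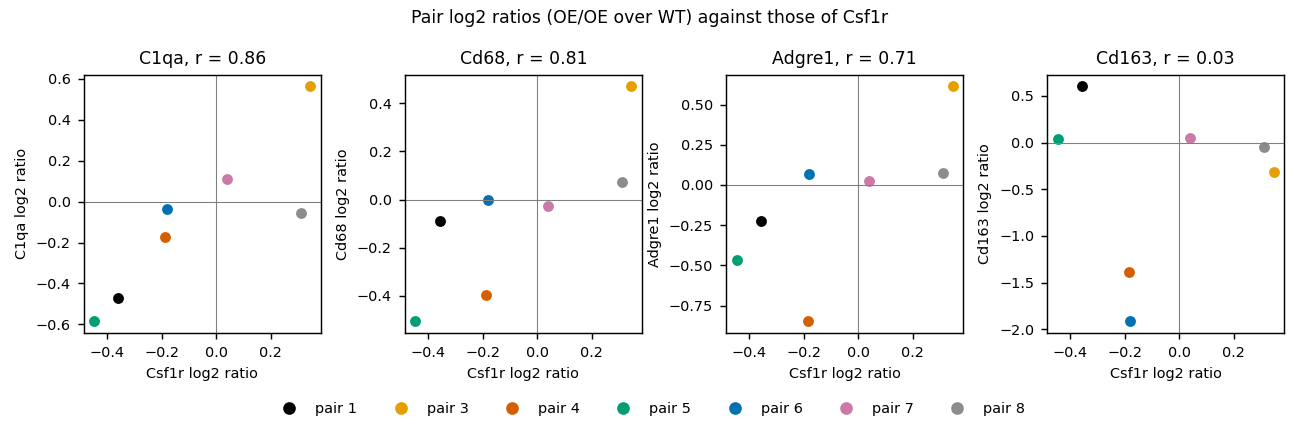
Log2 ratio of OE/OE to WT of C1qa, Cd68, Adgre1 and Cd163 (vertical axes, each with its own scale) against that of Csf1r in the 7 littermate pairs, 1 point per pair. The points of C1qa rise with Csf1r (r = 0.86), whereas the lowest Cd163 ratios, -1.92 in pair 6 and -1.39 in pair 4, belong to pairs with Csf1r near the middle (r = 0.03).

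To read the receptors per macrophage lineage transcript, each ratio was also taken relative to that of Csf1r in the same pair, a comparison chosen after the data were seen. Relative to Csf1r the mean log2 ratio was -0.92 ± 0.98 (SD, n = 7 pairs) for Cd209d, -0.80 ± 1.00 for Lyve1 and -0.62 ± 0.61 for Folr2. Each was lower in 5 of 7 pairs, with an exact sign-flip p of 0.0625 and 0.188 after adjustment over 9 genes. Without pair 4 the means were -0.68, -0.47 and -0.55, and without pair 1 they were -0.86, -0.82 and -0.74. Cd68 (-0.00043), C1qa (-0.03) and Adgre1 (-0.04) were near 0 on average. Csf1 was at -0.24 (exact sign-flip p = 0.219), Mrc1 at -0.37 (p = 0.234) and Cd163 at -0.36 (p = 0.344).

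Further gene lists were called at the same unadjusted threshold, and none of their genes passed after Benjamini-Hochberg adjustment over all genes. A list named the CSF axis was read next. Beside genes that act with the CSF1 receptor it holds the ligands and receptors of CSF2 and CSF3 (Csf2, Csf3, Csf2ra, Csf2rb, Csf2rb2, Csf3r). Of 15 genes of the CSF axis 14 were in the table, and none passed the test in either direction, with a median log2 fold change of -0.14. The most abundant were Csf3, the granulocyte growth factor (log2 fold change -0.35), and the cytokine receptor chains Csf2rb2 (-0.18) and Csf2rb (-0.16). They were followed by the phospholipase Plcg2 (0.04). Il34, the other ligand of the CSF1 receptor, was at 211 to 300 in WT and 195 to 321 in OE/OE mice, with a log2 fold change of 0.0075 (exact sign-flip p = 0.938). It is named here after its values were seen.

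Of 11 transcription factors of macrophages 10 were in the table and 2 rose, where 1.95% of all genes rose. Cebpa, which directs myeloid cells and also fat cells, rose by 0.30 (SE 0.12), with 6 of 7 higher and an exact sign-flip p of 0.0469. Its call was lost without pair 3, 6 or 7. Cebpa is also made by cells outside this lineage, and which cells carried the change was not tested. Runx1 (log2 fold change 0.10), Cebpb (0.22) and Irf8 (-0.05) did not pass.

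Among 30 further macrophage genes 27 were in the table, and 2 fell and none rose, where 1.85% of all genes fell. The median log2 fold change was -0.18, with 24 of 27 below 0. Cd209b, a relative of Cd209d known from marginal zone and lymph node macrophages, was at 11.7 to 450 in WT and 3.84 to 33.6 in OE/OE mice. The 450 was the WT mouse of pair 1, that with the raised lymphocyte genes, and the other 6 WT mice were at 57.1 or lower. Cd209b fell to a log2 fold change of -1.49 (SE 0.56), and 6 of 7 OE/OE mice were below their littermate (exact sign-flip p = 0.0312). Without pair 1 it was at -0.95 and still passed, and without pair 4 at -1.25 it did not. Of the other CD209 genes Cd209a (-0.42), Cd209f (-0.70) and Cd209g (-0.52) did not pass. Pf4, a chemokine of platelets and resident macrophages, fell to -0.86 (SE 0.34) and was lower in 5 of 7 pairs, with an exact sign-flip p of 0.0938. Its call was lost without pair 4 (-0.74), 5, 6 or 8. The most abundant of these genes, Apoe (-0.03), Gas6 (-0.07), Lgals3 (-0.28) and Cd14 (-0.06), did not pass, and these are also made by epithelial or stromal cells.

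Other cells that a digest of the gland can hold were read by fixed markers. Of 9 monocyte and dendritic cell genes 7 were in the table and 1 fell, where 1.85% of all genes fell. Their median log2 fold change was -0.07. The list sum was lower in the OE/OE mouse in 2 of 7 pairs, with a median log2 ratio of 0.23. The gene that fell was Ccr2, the receptor that brings monocytes into tissue, named after its values were seen. Its counts were 27.4 to 81.8 in WT and 20.1 to 42.9 in OE/OE mice, and each OE/OE mouse was below its littermate (log2 fold change -0.62, exact sign-flip p = 0.0156, the smallest it can give). No gene passed among the 6 blood endothelial, 6 epithelial, 4 lymphocyte (of 6) and 1 granulocyte gene (of 5) in the table, with median log2 fold changes of -0.11, 0.05, -0.16 and -0.94. The epithelial sums overlapped almost fully, at 280802 to 466256 in WT and 290070 to 464509 in OE/OE mice.

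Some stromal markers were also called lower in OE/OE MECs, as were 1.85% of all genes. None of these markers passed after Benjamini-Hochberg adjustment over all genes. Of 6 fibroblast genes 2 fell, Lum (log2 fold change -0.53, exact sign-flip p = 0.0469) and Pdgfra (-0.40, p = 0.0781). The count was 0 without pair 5, 1 without pair 3, 3 without pair 8, 4 without pair 1, and 1 without the littermate block or with the paired test. The list sum was 85531 to 172553 in WT and 56050 to 127155 in OE/OE mice. Of 5 adipocyte genes 4 fell, Adipoq, Plin1, Cidec and Cfd, with log2 fold changes of -1.33 to -1.30. The exact sign-flip p was 0.0156 for Plin1 and 0.0312 for the others. Adipoq, Plin1 and Cidec were low, with means of 35.1, 39.6 and 47.9 normalised counts, and Cfd was at 150. With a mean of at least 50 required, 2 adipocyte genes were left and 1 was called. Fabp4 (-0.36) did not pass. The list sum, set mainly by Fabp4, was 8627 to 28944 in WT and 4643 to 26499 in OE/OE mice. The fibroblast sum was lower in the OE/OE mouse of pairs 3, 4, 5, 6 and 7. The adipocyte sum, which follows Fabp4, was lower in pairs 4, 5, 6 and 8. Taken singly, Plin1 was lower in 7 of 7 pairs, and Adipoq, Cidec and Cfd in 6 of 7 each. Folr2 was lower in 6 pairs, all but pair 7, and Lyve1 in pairs 1, 3, 4, 5 and 6. The part of stromal cells in the levels of the macrophage genes was not tested.

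**Figure D5:**
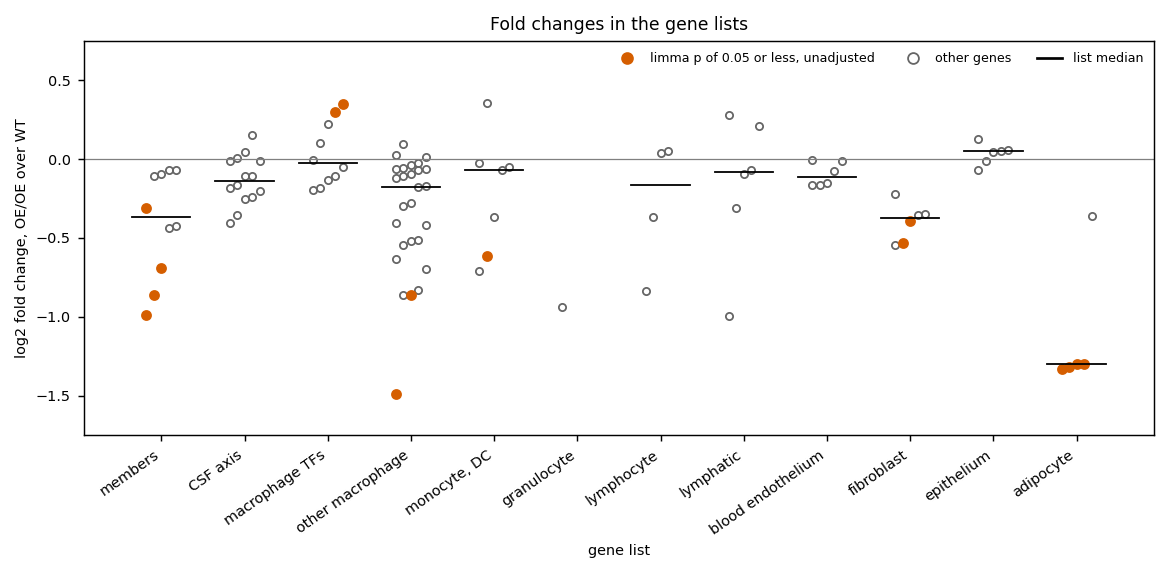
Log2 fold change (OE/OE over WT, limma) of each gene in the 10 macrophage genes and 11 further lists, where filled points passed the limma threshold of 0.05 before adjustment and a line marks the list median. Of the 10 members 4 are filled, all below 0, of the 5 adipocyte genes 4 are filled near -1.3, and no gene of the CSF axis is filled.

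Genes whose levels were most like those of Csf1r and Csf1 over the 14 libraries were listed from the whole table, as a description. For Csf1r these included Tlr8 (r = 0.93), a receptor for single-stranded RNA, Cyth4 (0.89), Prkag2 (0.84) and Cdk14 (0.83). Among the members Adgre1 (0.86) and Mrc1 (0.75) were nearest to Csf1r on this scale, and C1qa (-0.13) was not, although its pair ratios followed those of Csf1r. For Csf1 the most alike were Slc11a2 (0.88), Relb (0.88), Pxn (0.87), Pdgfb (0.87) and Gm16098 (0.86). Csf1 and Csf1r were at r = -0.51. The 14 libraries share litters, depth and cell composition, so that these values carry no test.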

How the data were processed

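RNA of MECs from 14 mice was sequenced as paired-end fragments of 75-base reads. The authors aligned them with TopHat 2.0.10 to mm10, counted them per GENCODE M21 gene with HTSeq 0.6.0, kept genes with at least 10 fragments in 7 or more samples and divided the counts by DESeq 1.18.0 size factors. The deposited values are this normalised signal. Whole fragments were recovered from 100% of values (tolerance 0.01), giving 20125106 to 41835978 per library, so that counting error is largest for Cd209d. No 2 libraries agreed within sampling noise.

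The main test was limma 3.58.1 (R 4.3.3, eBayes with trend) on log2(normalised count + 1) over all 16124 genes, blocked by littermate pair and called at an unadjusted p of 0.05 or less as in the study. Fold changes are on that scale and understate those of low genes. Single genes were checked with a two-sided exact sign-flip test of 7 pair ratios (128 patterns), and correlations with 5040 exact pairings. Littermates with the same pair number deviated together (r = 0.17 to 0.75, median 0.52, against a median of -0.15 for other combinations), and the labels give the pair. Alternatives were edgeR 4.0.16 and DESeq2 1.42.0 on recovered fragments, pseudocounts of 0.1 and 10, a mean of at least 50, no trend, median centring, quantile normalisation, no block, a paired test per gene and each pair left out. The scripts were tested on simulated data.

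Named were the members, the called genes and the 4 most abundant of the CSF axis, transcription factor and further macrophage lists, up to 2 of each other list, and the 5 genes most like Csf1r and Csf1. Some genes that this rule names are not reported here. Il34, Ccr2, the other CD209 and C1q genes, Lum, Pdgfra, the lymphatic and the adipocyte genes were named after their values were seen. The members and lists were chosen with earlier results of these data known.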

Additional observations from a re-analysis of the deposited data

How the results depend on the processing

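The 4 calls of Csf1, Lyve1, Folr2 and Cd209d held with edgeR, DESeq2, pseudocounts of 0.1 and 10, no trend, median centring and quantile normalisation. Without the replicate block the paired design was ignored and 1 of 10 members was called, 182 genes in all. The paired test on untransformed counts also called 1 member. With pairs left out 3 to 4 members were called, and the median log2 ratio was -0.42 to -0.22. A mean of at least 50 removed Cd209d and left 3. The exact sign-flip test, which passed 2 members, passed 0 after median centring, 1 after quantile normalisation and 0 to 2 with a pair left out. With 6 pairs its smallest p is larger. Without pair 4 the log2 ratio of Adgre1 went from -0.11 to 0.015 (range over pairs left out -0.23 to 0.015), and without pair 5 that of Cd68 to 0.0050 (range -0.16 to 0.0050). Correlations with Csf1r under 0.05 numbered 0 to 3 with a pair left out (2 with all), 0 without pair 3 and 1 without pair 5, and changed sign for Cd163 (-0.13 to 0.30), Cd209d (-0.072 to 0.48) and Csf1 (-0.51 to 0.44, the highest without pair 5). Of the 92 genes of the other lists 11 were called, 6 with a mean of at least 50 (74 genes left), 5 with the paired test, and 8 to 17 with a pair left out, the 17 without pair 1. The 2 further macrophage genes called became 6 without pair 1, 5 without pair 3 or 7 and 1 without pair 4, 5 or 6. The 2 transcription factors became 0 without pair 3 or 6 and 1 without pair 7 or 8. All genes called numbered 614, and 1196, 1366 and 381 without pairs 1, 4 and 6. Genes past an adjusted p of 0.05 numbered 2 with limma, 19 with DESeq2 and 0 with the paired test. The causes of these shifts were not tested. Depth limits Cd209d, with 6 to 44 fragments per library.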
